A study of Sus scrofa with 18 samples.

Results

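The DNAJ proteins, also called J-domain proteins or HSP40s, are the co-chaperones that hand unfolded proteins to HSP70 chaperones. Members were all probe sets of the pig array whose symbol or gene name in the authors' biceps femoris table began with DNAJA, DNAJB or DNAJC. The rule used names and no measured value. It found 41 of the 23999 probe sets tested, which belong to 23 genes: 4 of class A, 8 of class B and 11 of class C. Of the 41 probe sets, 38 carry the name only through the authors' human homolog column and 3 carry it as the pig symbol, and 13 genes have more than 1 probe set. Another 2 probe sets titled as J-domain proteins lie outside the rule because their cells start otherwise, and neither passed the test in either muscle. No probe set was removed for low signal.

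The study followed female domestic piglets of 26.9 kg average weight through an experimental critical illness, and compared a jaw muscle, masseter, with a hind-limb muscle, biceps femoris. Each muscle was sampled on day 1, which the titles call control, and on day 5, called treatment. There were 5 masseter arrays a day, from the same 5 piglets by the labels, and 4 biceps femoris arrays a day, from 4 of those piglets whose identities the labels do not give. All piglets were kept anaesthetised with isoflurane and mechanically ventilated over the 5 days. Drugs given were pancuronium bromide, which blocks the neuromuscular junction, at 0.1 mg/kg/h, the corticosteroid betamethasone at 0.1 mg/kg in 2 doses a day, and 1 h of Escherichia coli endotoxin at 36 µg/kg/h. Masseter day 1 is labelled untreated, and how its sampling was timed against the first doses is not given in the sources used here. No group is labelled as coming from animals outside this protocol, so time, immobility and each drug cannot be told apart. The labels conflict over biceps femoris on day 1, where the source fields say treated and the titles, which were followed, say control, and a breed tag names wild boar where the protocol names domestic piglets. Values are log2 signals of a probe set, normalised by the authors within each muscle, so levels were not set against each other between muscles or between probe sets.

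The muscle identity of the samples was clear, with ACTA1 at 14.59 or above and CKM at 14.13 or above in every group mean on the log2 scale. In masseter 1 of 6 muscle markers rose and 1 fell, in biceps femoris 1 fell, and myoglobin (MB) fell in both. No macrophage or leukocyte marker of 5 passed the test in either muscle. In masseter 4 of the 5 had an unadjusted p under 0.05 in limma, beside 28.9% of all probe sets, with changes from -0.32 to 1.03. Their summed level there ran from 8.36 to 8.80 (log2) on day 1 and from 8.59 to 9.80 on day 5. Meanwhile 3 of 4 fibroblast markers (DCN, LUM and COL3A1), 2 of 4 endothelial markers and 1 of 3 nerve markers fell in biceps femoris. The remaining fibroblast marker, PDGFRA, changed by 0.39 there and did not pass. In masseter 1 of 4 endothelial markers, VWF, rose by 0.82, while the other 3 changed downward, the lowest at -0.21, and did not pass. Over all probe sets, 13.8% passed in masseter and 17.2% in biceps femoris. The summed fibroblast marker level ran from 14.07 to 14.38 (log2) in biceps femoris on day 1 and from 12.11 to 13.55 on day 5; its part in the DNAJ values was not tested. In whole muscle, fewer cells of a type and less RNA per cell cannot be told apart. Biceps femoris day 5 array 1 stood apart: its actin 3′ to 5′ signal difference was 1.59 against 1.11 to 1.13 in the other day 5 arrays, which in turn lay below the 1.37 to 1.65 of day 1. Its 28S rRNA signal, 12.09, was the highest of the muscle. The BioC spike-in read 8.87 to 9.13 on biceps femoris day 1 arrays 1 to 3, 7.97 on array 4 and 7.43 to 7.78 on day 5. A block that separates those 3 arrays from the other 5 sets the day 5 arrays against day 1 array 4 alone, so its values rest on 1 day 1 array; it is given with the alternatives and no call is read from it.

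All J-domain proteins share a short helical domain that docks on an HSP70 and triggers its ATP hydrolysis, which closes the HSP70 on its client. Class A members also carry a zinc finger and a glycine- and phenylalanine-rich stretch, class B members that stretch without the zinc finger, and class C members share only the J domain and are often tied to 1 place or task. Some work in the cytosol beside HSPA8 and the inducible HSP70s, others in the endoplasmic reticulum (ER) beside HSPA5, known as BiP. In muscle, J-domain proteins serve protein quality control at the Z-disc, and inherited defects of DNAJB6 and DNAJB4 cause myopathies in people.

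Between day 1 and day 5, some DNAJ genes rose and others fell within the same muscle. In masseter 5 of the 23 genes were higher and 2 lower: DNAJA1, DNAJB2, DNAJB6, DNAJC1 and DNAJC3 rose, and DNAJB5 and DNAJA4 fell. In biceps femoris 5 were higher and 2 lower as well: DNAJB2, DNAJC1, DNAJC3, DNAJB12 and DNAJA2 rose, and DNAJB5 and DNAJC10 fell. DNAJB2, DNAJC1 and DNAJC3 were called higher in both muscles and DNAJB5 lower in both. These calls do not pair the arrays by animal. With the animal as a block, the masseter calls of DNAJC1 and DNAJC3 were lost, at adjusted p values of 0.0621 and 0.0529 in limma. DNAJB4 was then called lower in masseter, at 0.0311. No probe set was called in opposite directions. Each gene is represented by its probe set of highest mean, and a call means an adjusted p under 0.05 from limma with Benjamini-Hochberg adjustment over all probe sets tested.

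Counted as probe sets, 13 of 41 passed in masseter, 9 higher and 4 lower, where 13.8% of all probe sets passed, 7.31% higher and 6.51% lower. In biceps femoris 9 of 41 passed, 6 higher and 3 lower, against 17.2% of all probe sets, 9.89% higher and 7.27% lower. The share of DNAJ probe sets that passed was thus 31.7% in masseter and 22.0% in biceps femoris, the latter near the background. Counted as genes by their brightest probe sets, 30.4% passed in each muscle, so the gap between the muscles depends on the unit counted. The median change of the 41 was 0.06 in masseter and 0.12 in biceps femoris (log2), beside -0.03 and -0.02 over all probe sets. With the animal as a block, the masseter count became 6 higher and 5 lower. Without biceps femoris day 5 array 1 the count there became 6 higher and 7 lower, and all 9 calls were kept. The authors' deposited table, which covers biceps femoris, calls 9 of the 41 probe sets, 6 higher and 3 lower, and its 9 are those called here.

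**Figure D1:**
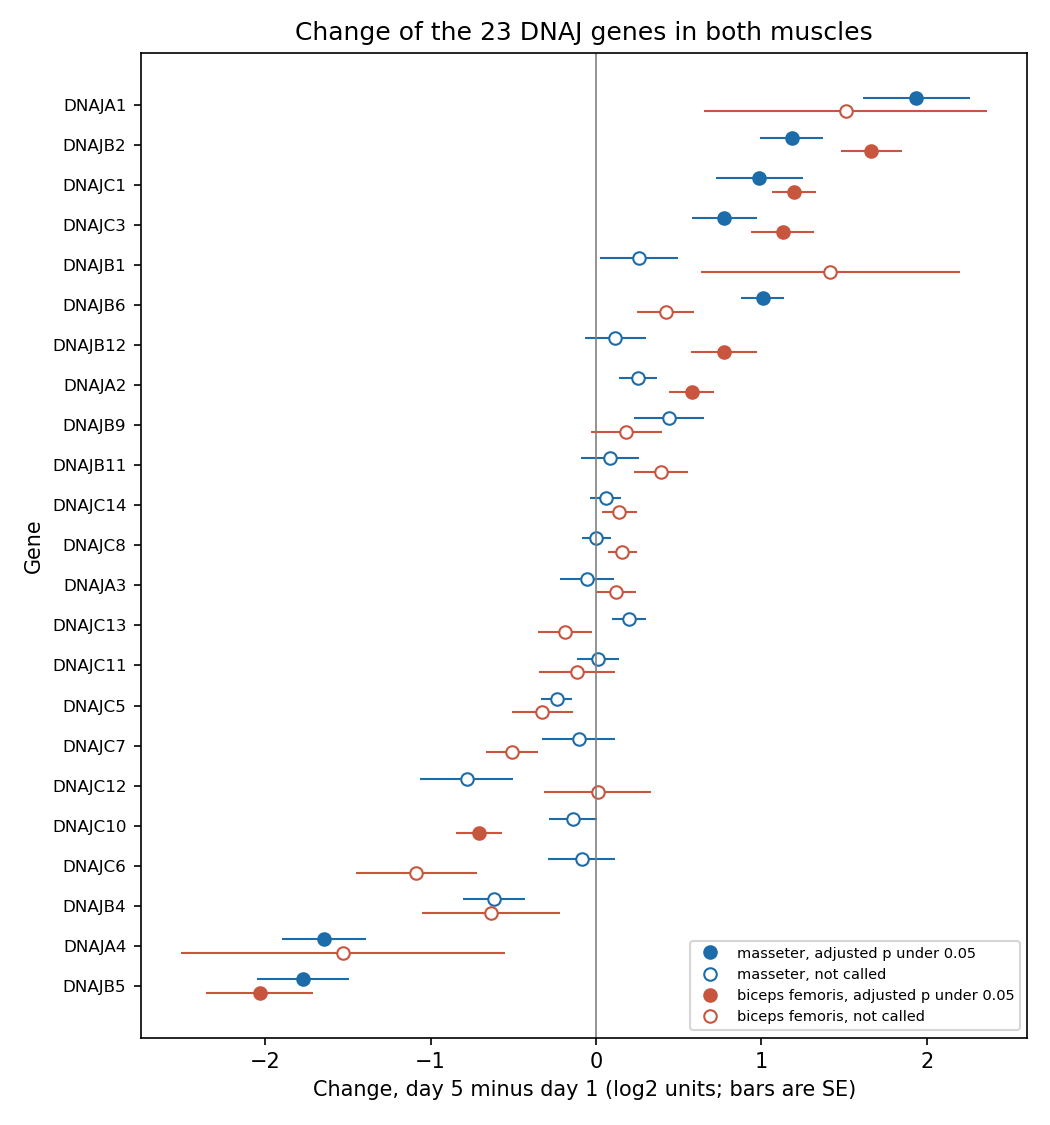
Change of each of the 23 DNAJ genes from day 1 to day 5 in log2 units (horizontal axis), masseter in blue and biceps femoris in red, with SE bars and filled points where the adjusted p was under 0.05. DNAJA1 and DNAJB2 stand at the upper end and DNAJA4 and DNAJB5 at the lower end in both muscles, and the widest bars belong to DNAJA1, DNAJB1 and DNAJA4 in biceps femoris.

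The cytosolic members held the largest changes in both directions. DNAJB2 (probe set Ssc.1180.1.S1_at), which carries ubiquitin-interacting motifs and passes clients toward the proteasome, rose in both muscles. In masseter its log2 values were 7.46, 7.36, 7.34, 7.49 and 7.57 on day 1 and 7.90, 9.11, 8.84, 8.53 and 8.77 on day 5. Every day 5 array lay above every day 1 array, and the lowest day 5 value was that of array 1. The means were 7.45 ± 0.09 and 8.63 ± 0.46 (SD, n = 5), a change of 1.18 (SE 0.19) or 2.27-fold, with an adjusted p of 0.00347 in limma. In biceps femoris the values were 6.88, 7.24, 6.96 and 7.18 on day 1 and 9.25, 8.55, 8.38 and 8.74 on day 5. These groups did not overlap either, and the change was 1.66 (SE 0.19), 3.17-fold, adjusted p 0.000759 in limma.

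DNAJB5 (Ssc.9405.1.A1_at), a class B member that in rodent heart cells is found with thioredoxin and the histone deacetylase HDAC4, fell furthest among the members called. Masseter day 1 arrays read 10.14, 11.06, 9.53, 10.91 and 10.62, and day 5 arrays 8.76, 8.65, 8.24, 8.59 and 9.15. The groups did not overlap, although day 1 array 3 came near the highest day 5 array. The change was -1.77 (SE 0.28), a 3.42-fold drop, with an adjusted p of 0.003 in limma. Biceps femoris read 10.50, 10.20, 10.49 and 10.81 on day 1 and 9.16, 7.52, 8.37 and 8.81 on day 5, again without overlap. The change there was -2.03 (SE 0.32), 4.09-fold, adjusted p 0.00365 in limma. The other DNAJB5 probe set, Ssc.9405.2.S1_at, fell by 1.42 in masseter and by 1.71 in biceps femoris on the log2 scale, with adjusted p values of 0.011 and 0.00166 in limma.

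DNAJA1 (Ssc.8473.1.S1_at), a farnesylated class A partner of cytosolic HSP70, had the largest rise of the members in masseter. Its day 1 values there were 8.61, 8.51, 9.31, 8.63 and 8.39 and its day 5 values 9.81, 11.04, 10.28, 10.31 and 11.70. All day 5 arrays were above all day 1 arrays, and arrays 2 and 5 were the highest. The mean went from 8.69 ± 0.36 to 10.63 ± 0.74 (SD, n = 5), a change of 1.94 (SE 0.32), 3.83-fold, with an adjusted p of 0.00418 in limma. Its other probe set rose by 1.54 (SE 0.30, adjusted p 0.00833 in limma, or 0.0887 in a single fit of all 18 arrays). In biceps femoris the day 1 values were 9.52, 9.02, 8.64 and 9.47, and the day 5 values 12.83, 8.52, 9.55 and 11.79. Arrays 1 and 4 were far above day 1, array 3 was just above it and array 2 was below it, so the groups overlapped. The change of 1.51 (SE 0.86) did not pass, with an adjusted p of 0.288 in limma, and it was 0.79 without array 1.

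DNAJB6 (Ssc.4058.2.S1_at), which keeps aggregation-prone proteins soluble and is found at the Z-disc, rose in masseter. The day 1 values were 7.92, 7.69, 7.71, 7.92 and 7.82, and the day 5 values 8.60, 9.11, 9.13, 8.70 and 8.58. The groups were well apart, and the change of 1.01 (SE 0.13), 2.01-fold, had an adjusted p of 0.00116 in limma, the smallest of the members in that muscle. A second probe set rose by 0.35 in masseter, with an adjusted p of 0.031 in limma that became 0.0679 with the animal as a block. That call was kept in 5 alternative fits and lost in 11, at 0.0502 to 0.294. In biceps femoris the values were 9.28, 8.95, 8.93 and 8.50 on day 1 and 9.48, 9.03, 9.43 and 9.40 on day 5. They overlapped, and the change of 0.42 (SE 0.17) had an adjusted p of 0.141 in limma. The second probe set pointed down there, at -0.46 (SE 0.33), and did not pass.

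DNAJA4 (Ssc.17243.1.S1_at), a class A relative of DNAJA1, fell in masseter. It read 10.01, 9.60, 9.83, 9.93 and 9.64 on day 1 and 8.10, 8.65, 7.39, 7.75 and 8.88 on day 5. No day 5 array reached the lowest day 1 array, and the change was -1.64 (SE 0.26), 3.13-fold, adjusted p 0.00291 in limma. That call is lost in a single fit of all 18 arrays, at 0.0964, where the spread of the biceps femoris arrays enters. Biceps femoris arrays read 9.76, 9.26, 9.80 and 10.51 on day 1 and 11.52, 6.78, 6.67 and 8.25 on day 5. Array 1 was above all day 1 arrays and the other 3 were below them all. The change was -1.53 (SE 0.98) with an adjusted p of 0.349 in limma, and -2.60 (SE 0.43) with an adjusted p of 0.00553 without array 1. A second DNAJA4 probe set changed by -0.07 and 0.05 in the muscles and did not pass.

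DNAJA2, a constitutive class A partner of HSPA8 in refolding, gave different answers from its 2 probe sets. The brighter, Ssc.1752.1.S1_at, read 8.45, 8.25, 8.58 and 8.90 in biceps femoris on day 1 and 9.06, 9.08, 9.24 and 9.12 on day 5. Its groups did not overlap, and the change of 0.58 (SE 0.14), 1.49-fold, had an adjusted p of 0.0202 in limma. Leaving out day 1 array 1 or 3 or day 5 array 3 or 4 brought the adjusted p to between 0.0500109 and 0.0587. In masseter it changed by 0.25 (SE 0.11, adjusted p 0.164 in limma). The other probe set, Ssc.14051.1.S1_at, read 8.60, 8.34, 8.63, 8.76 and 9.01 in masseter on day 1 and 7.75, 8.09, 8.29, 8.33 and 8.32 on day 5. It fell by 0.51 on the log2 scale there, with an adjusted p of 0.0416 in limma. That call was lost when any masseter array but day 1 array 2 or day 5 array 1 was left out, at 0.0518 to 0.0946. In biceps femoris it changed by 0.19 (SE 0.08) and did not pass.

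Other cytosolic members did not pass in either muscle. DNAJB1, the main heat-inducible class B member, read 7.25, 7.12, 6.90 and 7.24 in biceps femoris on day 1 and 10.84, 7.16, 6.96 and 9.22 on day 5. Arrays 1 and 4 were again high while the other 2 stayed within the day 1 range, and the change of 1.42 (SE 0.78) had an adjusted p of 0.273 in limma. In masseter it read 6.72, 6.86, 7.25, 6.81 and 6.79 on day 1 and 7.41, 6.94, 6.45, 6.98 and 7.94 on day 5, a change of 0.26 (SE 0.24). DNAJB4, the class B member tied to an inherited myopathy, changed by -0.62 in masseter, with an adjusted p of 0.0517 in limma that became 0.0311 with the animal as a block. In biceps femoris it changed by -0.64, and by -1.03 with an adjusted p of 0.0452 in limma without day 5 array 1. DNAJC7, whose tetratricopeptide repeats bind both HSP70 and HSP90, changed by -0.10 and -0.51, and without that biceps femoris array by -0.62 with an adjusted p of 0.0161. DNAJC8, a splicing factor, changed by at most 0.25 in either probe set, and DNAJC12, a partner of the aromatic amino acid hydroxylases, by -0.78 in masseter (adjusted p 0.0909) and 0.01 in biceps femoris.

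**Figure D2:**
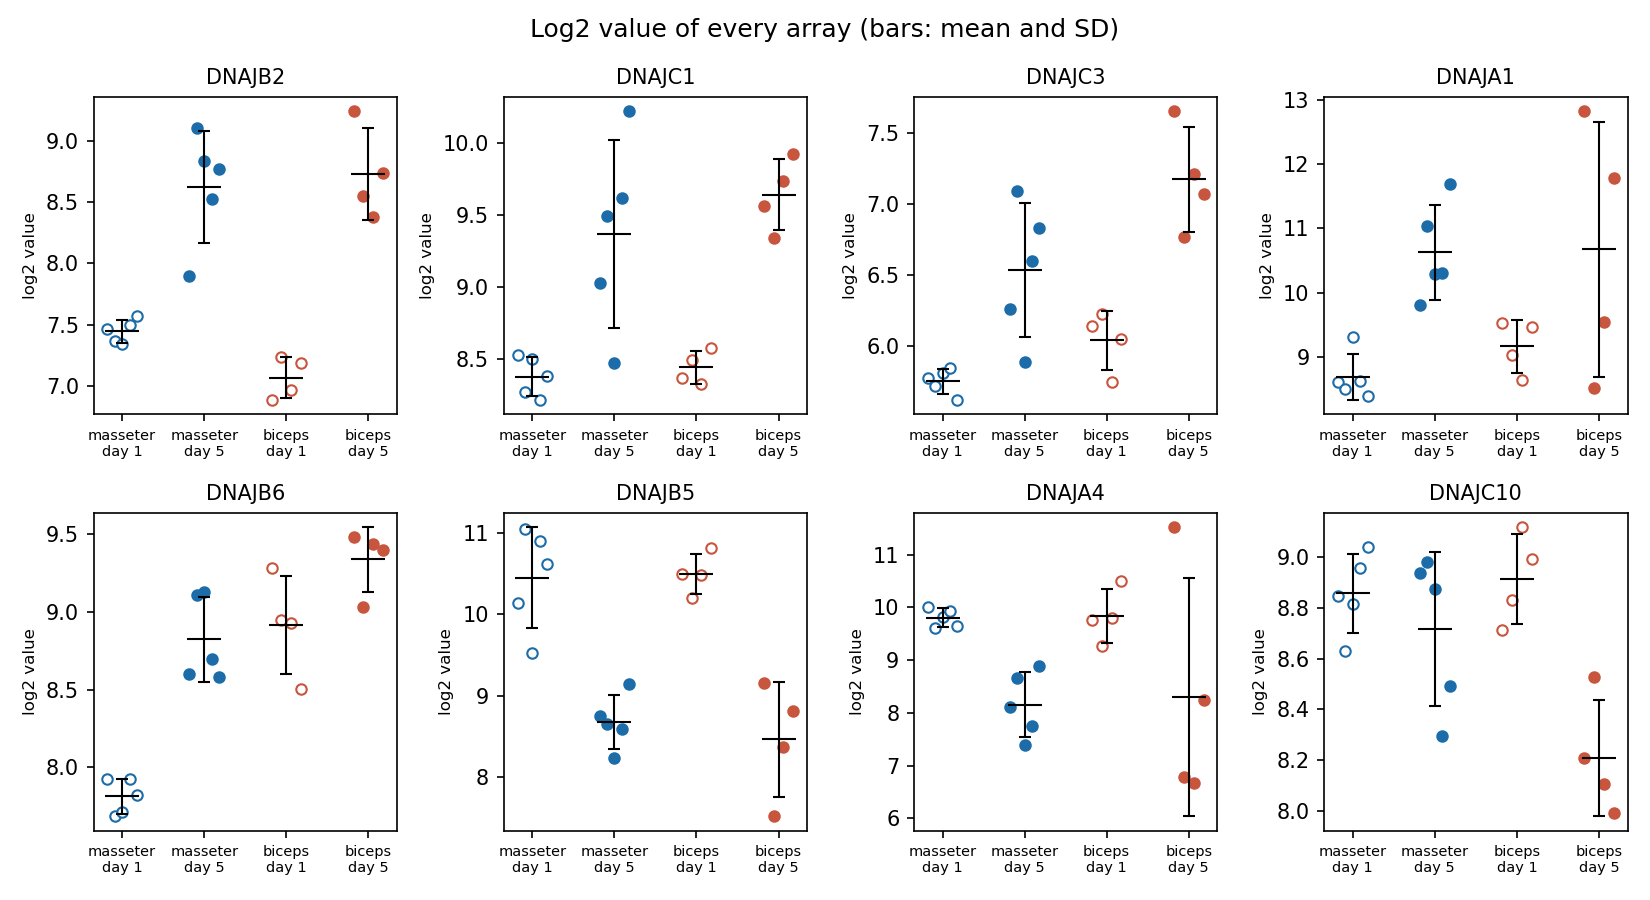
Log2 value of every array for 8 DNAJ genes (vertical axis, one scale per panel), open points for day 1 and filled for day 5, blue for masseter and red for biceps femoris, with the mean and SD in black. The muscles were normalised apart, so only days within a muscle compare: DNAJB2, DNAJB5 and DNAJC3 do not overlap in either muscle, while DNAJA1 and DNAJA4 spread from 8.52 to 12.83 and from 6.67 to 11.52 in biceps femoris on day 5.

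Of the 7 members placed in the ER, 2 rose in masseter, and in biceps femoris 3 rose and 1 fell. These are 28.6% and 57.1% of the 7 by the brightest probe set of each gene, beside 13.8% and 17.2% of all probe sets. DNAJC1 (Ssc.27322.1.S1_at), a membrane protein whose lumenal J domain works with HSPA5, rose in both muscles. In biceps femoris it read 8.37, 8.50, 8.33 and 8.58 on day 1 and 9.57, 9.34, 9.73 and 9.92 on day 5. The groups were apart by more than their ranges, and the change of 1.20 (SE 0.13), 2.29-fold, had an adjusted p of 0.000743 in limma, the smallest of the members there. In masseter it read 8.53, 8.27, 8.50, 8.22 and 8.38 on day 1 and 9.03, 9.49, 8.48, 9.62 and 10.22 on day 5. Only array 3 remained within the day 1 range. The change of 0.99 (SE 0.26) had an adjusted p of 0.0325 in limma, and 0.0621 with the animal as a block. Leaving out any day 1 array, or day 5 array 2 or 4, also ended that call, at 0.0523 to 0.0774. The other 4 probe sets named DNAJC1 were dim, with means under 4.45 on the log2 scale, and none passed.

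DNAJC3 (Ssc.21408.1.S1_at), known as p58IPK, binds unfolded proteins in the ER lumen and is known as an inhibitor of the stress kinases PKR and PERK. In masseter it read 5.78, 5.72, 5.82, 5.85 and 5.63 on day 1 and 6.26, 7.09, 5.89, 6.60 and 6.83 on day 5. The groups did not overlap, though array 3 was only just above day 1. The change was 0.78 (SE 0.19), 1.71-fold, with an adjusted p of 0.0246 in limma, and 0.0529 with the animal as a block. That call was also lost without day 1 array 1 or 5, or day 5 array 4 or 5, at 0.052 to 0.0629. Biceps femoris arrays read 6.14, 6.22, 5.75 and 6.05 on day 1 and 7.65, 6.77, 7.21 and 7.07 on day 5. All day 5 arrays were above day 1, and the change of 1.13 (SE 0.19), 2.19-fold, had an adjusted p of 0.00481 in limma. A second DNAJC3 probe set rose by 0.30 in biceps femoris (adjusted p 0.021 in limma) and changed by -0.03 in masseter.

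DNAJB12 and DNAJC10 both take part in the removal of misfolded ER proteins, and they moved in opposite directions in biceps femoris. DNAJB12 (Ssc.17322.1.S1_at), a membrane protein with its J domain in the cytosol, read 7.95, 7.76, 7.91 and 7.81 on day 1 and 8.05, 8.58, 9.07 and 8.82 on day 5. Day 5 array 1 was the lowest and just above day 1. The change was 0.77 (SE 0.20), 1.71-fold, with an adjusted p of 0.0306 in limma, and 0.97 with an adjusted p of 0.00216 without that array. Leaving out any of the other 7 arrays ended the call, at 0.0549 to 0.0823. DNAJC10 (Ssc.1802.1.S1_at), which reduces disulfide bonds in its clients, read 8.71, 8.83, 9.12 and 8.99 on day 1 and 8.21, 8.53, 8.11 and 7.99 on day 5. The groups did not overlap, and it fell by 0.71 on the log2 scale (SE 0.14), 1.63-fold, with an adjusted p of 0.00987 in limma. In masseter DNAJB12 changed by 0.12 (SE 0.18) and DNAJC10 by -0.14 (SE 0.15), and neither passed.

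The other 3 ER members were not called by their brightest probe sets. DNAJC14, a membrane protein involved in receptor export, changed little by its brightest probe set, with 0.06 in masseter and 0.14 in biceps femoris. Its other 2 probe sets rose in masseter by 0.64 (SE 0.09, adjusted p 0.00172 in limma) and 0.51 (SE 0.12, adjusted p 0.0173 in limma). In that muscle Ssc.1307.1.S1_at read 7.37, 7.27, 7.36, 7.36 and 7.17 on day 1 and 7.89, 7.96, 7.87, 7.83 and 8.19 on day 5. Its day 5 arrays were all above day 1. In biceps femoris the same 2 probe sets changed by 0.50 and 0.61, with adjusted p values of 0.0876 and 0.0986 in limma. DNAJB9 and DNAJB11, lumenal partners of HSPA5 that are known targets of the unfolded protein response, changed by 0.44 and 0.08 in masseter and by 0.18 and 0.39 in biceps femoris, and no probe set of either passed. DNAJB9 passed in masseter without day 5 array 3, with a change of 0.62 and an adjusted p of 0.0334 in limma.

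Neither of the 2 mitochondrial members passed in either muscle. DNAJA3, of the matrix, changed by -0.05 and 0.12, and DNAJC11, of the outer membrane, by 0.01 and -0.11 in masseter and biceps femoris. None of the 3 members of vesicles and endosomes passed either. Over all probe sets 13.8% passed in masseter and 17.2% in biceps femoris, so no call among so few members says little. DNAJC5, the cysteine string protein of secretory vesicles, changed by -0.24 and -0.33, and DNAJC13, of early endosomes, by 0.20 and -0.19. DNAJC6, the clathrin-uncoating protein auxilin, read 5.92, 5.66, 5.98 and 5.84 in biceps femoris on day 1 and 3.61, 4.78, 5.61 and 5.04 on day 5. Its day 5 arrays were all below day 1, yet so unequal that the change of -1.09 (SE 0.36) had an adjusted p of 0.0792 in limma. It was -0.70 with an adjusted p of 0.041 without array 1.

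No DNAJ probe set differed between the muscles in its change. In the contrast of the masseter change minus the biceps femoris change, 0 of 41 passed in limma, where 0.2% of all probe sets passed, 8 of the 41 had an unadjusted p under 0.05 beside 12.3% of all probe sets, and the smallest adjusted p was 0.118. With weights for arrays 1 of the 41 passed. The intervals show what the arrays could not settle. For DNAJB2 the difference was -0.48 (95% interval -1.08 to 0.11, unadjusted for the number of tests), and for DNAJC1 it was -0.21 (-0.92 to 0.50). For DNAJB5 it was 0.26 (-0.69 to 1.21). For DNAJA1 and DNAJA4 the intervals spanned -1.48 to 2.33 and -2.19 to 1.95, so a several-fold difference in either direction remained possible. By brightest probe sets, the genes whose unadjusted intervals left out 0 were DNAJB6 at 0.59 (0.13 to 1.04), DNAJC10 at 0.56 (0.12 to 1.01), DNAJC6 at 1.00 (0.11 to 1.89) and DNAJB12 at -0.66 (-1.26 to -0.05). The dimmer DNAJA2 probe set, at -0.71 (-1.09 to -0.32), had the smallest adjusted p given above. Intervals of dimmer probe sets of DNAJC3, DNAJB6 and DNAJC8 also left out 0, at -0.33, 0.81 and -0.34. The change had the same sign in both muscles for 19 of the 23 genes, or 82.6%, by their brightest probe sets. Counted as probe sets it did so for 28 of the 41, which is not above the 70.8% of all probe sets.

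The day 5 arrays of biceps femoris were most unequal in DNAJA4, DNAJA1 and DNAJB1. Day 5 array 1 was the highest, and array 4 the next, in these 3 and in DNAJB2, DNAJB4, DNAJB5, DNAJB9, DNAJB11 and DNAJC14, or 9 of the 23 genes. The same order held for 10 of the 12 HSP70 family genes and for 12.3% of all probe sets, an order looked at after these values had been seen. HSPA6, a strictly heat-inducible HSP70, read 13.02, 5.53, 5.47 and 7.43 on day 5 after 5.26, 4.80, 5.22 and 5.42 on day 1. Pig HSP70.2, the counterpart of HSPA1A and HSPA1B, read 13.62, 9.60, 9.98 and 13.17 after 9.55, 9.98, 9.97 and 11.29. HSPH1, an HSP110 that exchanges the nucleotide of HSP70, read 12.97, 7.48, 8.28 and 11.10 after 8.72, 8.06, 8.04 and 8.99. Arrays 1 and 4 were thus above the day 1 range in DNAJA1, DNAJB1, HSPA6, HSP70.2 and HSPH1, and array 1 also in DNAJA4, where array 4 was below it. Array 2 was below the day 1 range in DNAJA1, DNAJA4 and HSPH1. Array 1 also has the actin 3′ to 5′ and 28S values given above, and array 4 does not share them, with 1.11 and 11.22; their part in these values was not tested. Whether the probe sets tell near-identical HSP70 genes apart was not tested either.

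The spread between arrays was larger on day 5 for most members. In masseter the SD was larger on day 5 for 21 of the 23 genes, with a median ratio of 2.07, and over all probe sets it was larger for 62.4%, with a median ratio of 1.23. In biceps femoris it was larger for 18 of 23, with a median ratio of 2.23, beside 61.1% and 1.22 over all probe sets. In masseter day 5 arrays 2 and 5 were the highest in DNAJA1, and in HSPH1 with 11.15 and 11.03 against 8.29 to 10.43 in the others. Masseter day 5 array 3 was the lowest of its group in DNAJC1, DNAJC3, DNAJB1, DNAJA4 and HSPH1.

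**Figure D3:**
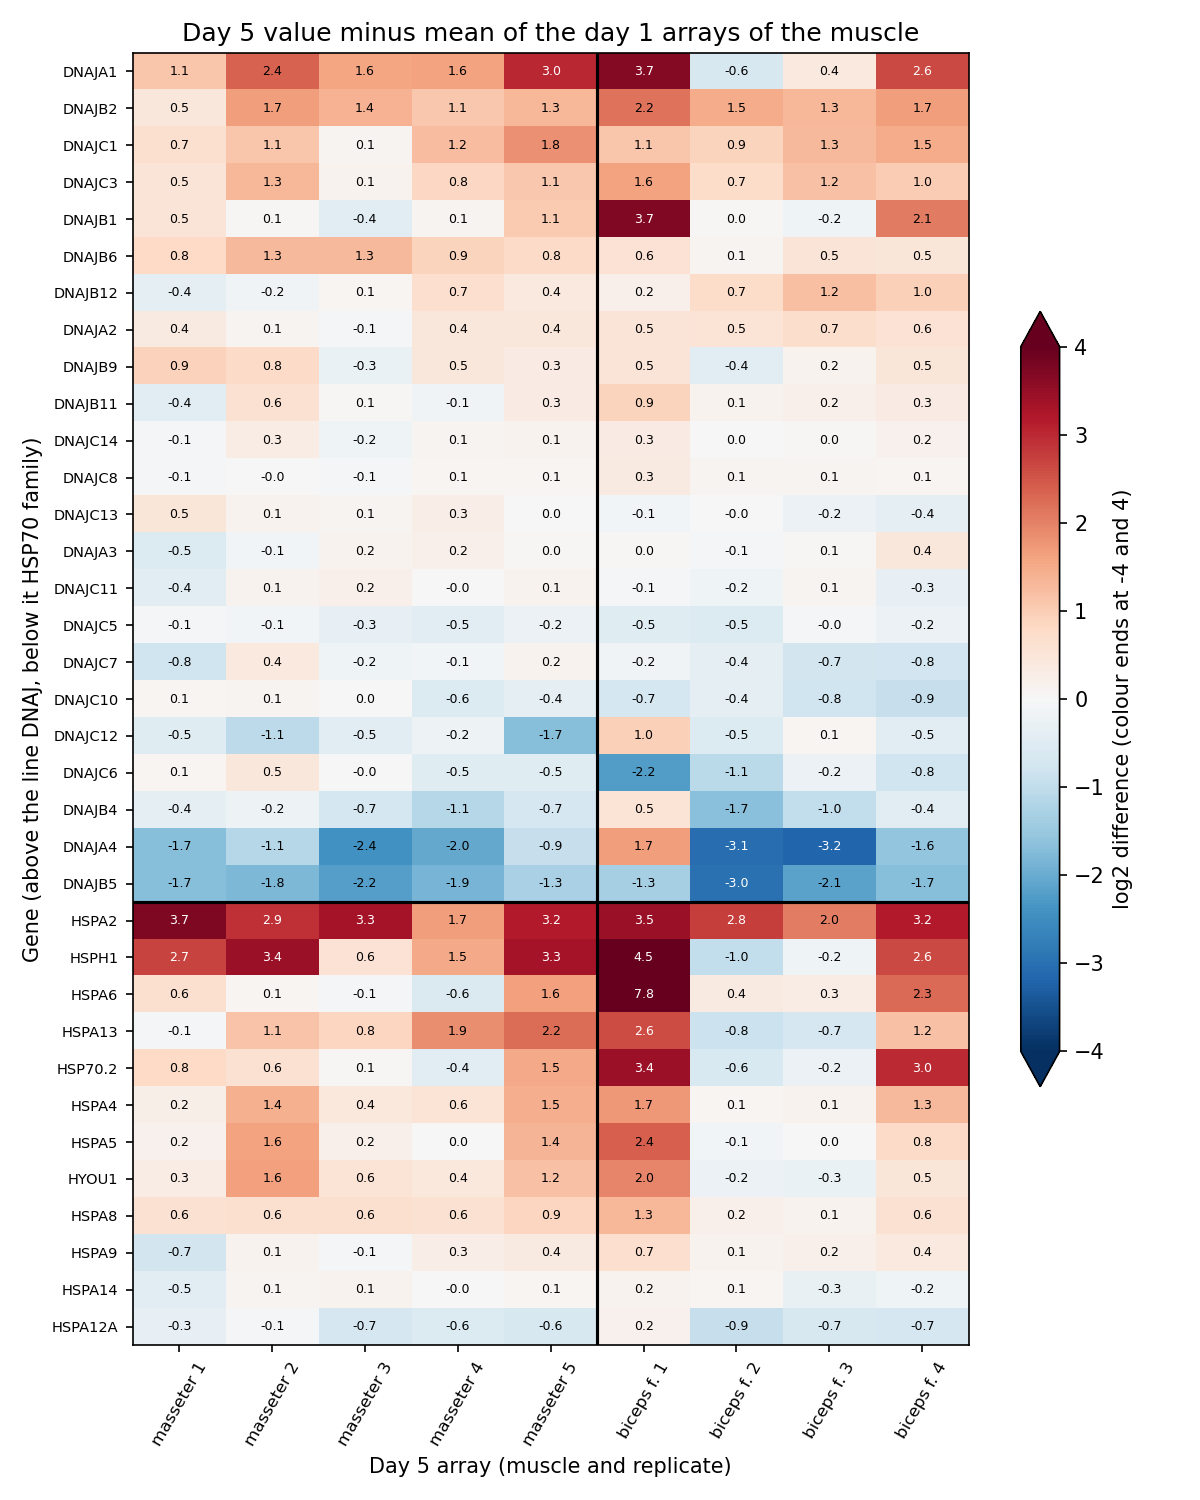
Each day 5 array minus the mean of the day 1 arrays of its muscle, in log2 units (colour and printed number), for the 23 DNAJ genes above the line and 12 HSP70 family genes below it; columns are the 5 masseter and 4 biceps femoris arrays. Biceps femoris arrays 1 and 4 are high in DNAJA1, DNAJB1, HSPA6, HSP70.2 and HSPH1 while arrays 2 and 3 lie between -1.0 and 0.4. DNAJB2, DNAJB5, DNAJB6, DNAJC1, DNAJC3 and DNAJC5 keep 1 sign in all 9 columns, as do HSPA2, HSPA4 and HSPA8.

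In the lists of the HSP70 family and of HSP90 with its co-chaperones, every call was upward in the main comparisons, by the brightest probe set of each gene. Of the 12 HSP70 family genes measured, 4 rose in masseter and 1 in biceps femoris, and none fell. These are 33.3% and 8.33% of the list beside 13.8% and 17.2% of all probe sets, so the biceps femoris share was below the background. Without biceps femoris day 5 array 1, HSPA12A fell there by 0.75 on the log2 scale (adjusted p 0.00305 in limma). HSPA2, an HSP70 best known from the testis, rose most. It read 7.03, 7.29, 7.10, 6.15 and 5.87 in masseter on day 1 and 10.42, 9.60, 10.03, 8.37 and 9.86 on day 5. In biceps femoris it read 5.72, 6.45, 5.04 and 6.77, then 9.46, 8.76, 8.04 and 9.17. All day 5 arrays were above all day 1 arrays in both muscles. The changes were 2.97 (SE 0.39, adjusted p 0.00134 in limma) and 2.86 (SE 0.42, adjusted p 0.00261 in limma). HSPH1 rose in masseter by 2.32 (SE 0.51, adjusted p 0.0151 in limma), HSPA4 by 0.82 (0.0468, or 0.0822 with the animal as a block), and HSPA8, the constitutive HSC70, by 0.67 (0.00119). HSPA5, the HSP70 of the ER, changed by 0.67 and 0.77 and did not pass in either muscle. The median change of the list was 0.67 in each muscle.

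Of the 15 genes of HSP90 and its co-chaperones, 6 rose in masseter and 8 in biceps femoris, and none fell. These are 40.0% and 53.3% of the list, beside 13.8% and 17.2% of all probe sets. With single arrays left out the counts ran from 5 to 11 in masseter and from 6 to 9 in biceps femoris. The 11 came without masseter day 5 array 1, where 19.3% of all probe sets passed. STIP1, which bridges HSP70 and HSP90, rose by 1.44 (SE 0.27, adjusted p 0.00682 in limma) and 1.80 (SE 0.19, adjusted p 0.000567 in limma). HSP90AB1, the constitutive HSP90, rose by 1.24 and 1.33, the co-chaperone PTGES3 (p23) by 1.15 and 1.61, and the immunophilin FKBP4 by 1.00 and 1.85, all with adjusted p under the threshold in both muscles. With the animal as a block the masseter calls of FKBP4 and HSP90AA1 were lost, at adjusted p values of 0.056 and 0.0629. The median of the list was 0.82 in masseter and 0.87 in biceps femoris.

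The next list holds nucleotide exchange factors, which release the client from HSP70, and BAG proteins. Of its 8 genes, 2 rose in masseter and 3 in biceps femoris. These are 25.0% and 37.5% of the list, beside 13.8% and 17.2% of all probe sets. BAG6 rose by 0.61 and 1.06, BAG1 by 0.35 and 0.48, and GRPEL1, of the mitochondrial matrix, by 0.83 in biceps femoris, while its 0.27 in masseter did not pass. With the animal as a block neither masseter call held, with adjusted p values of 0.051 for BAG6 and 0.0523 for BAG1. Leaving out masseter day 1 arrays 1, 2, 3 or 4, or day 5 arrays 2, 4 or 5, each left 1 call, and leaving out day 5 array 1 gave 4. A dimmer BAG6 probe set fell in masseter. SEC63, a J-domain protein of the ER under another name, rose in masseter by 0.61 (adjusted p 0.0221 in limma, or 0.0816 with the animal as a block) and changed by 0.58 in biceps femoris (0.0612), and HSCB, of the mitochondrion, passed in biceps femoris only when day 5 array 1 was left out, at 0.78 (0.00988). Among the 3 heat shock factors, HSF1 rose by 0.55 and 0.85, and HSF2 rose by 1.06 in masseter and changed by -0.33 in biceps femoris.

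**Figure D4:**
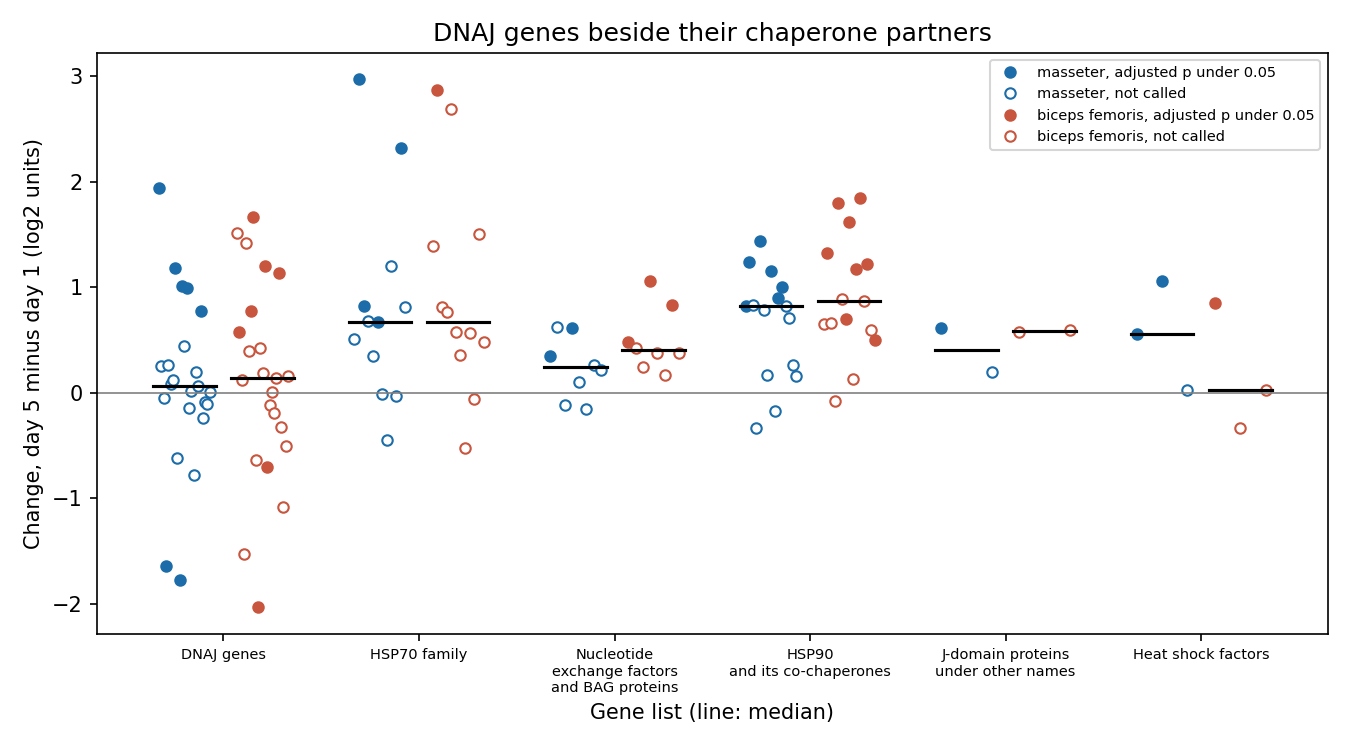
Change from day 1 to day 5 (log2 units, vertical axis) of the 23 DNAJ genes and of 5 lists of partner genes, masseter in blue and biceps femoris in red, filled where the adjusted p was under 0.05, with a black line at each median. Filled points lie on both sides of 0 among the DNAJ genes, and above 0 in the partner lists.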

How the data were processed

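RNA of 18 muscle samples was hybridised to a 1-colour Affymetrix pig array. The deposited values are log2 signals from RMA, per the submitters' processing notes and the table itself; sorted values differ by at most 0.230 between arrays of a muscle and by at least 0.517 between muscles, so each muscle was fitted alone. The authors' deposited biceps femoris table also gives p-values, a log2 fold change and a B-statistic, a log-odds score not used here, per the file headers. The array has no depth, and precision rests on 4 or 5 arrays a group.

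Of 24123 probe sets, 124 controls were left out. Day 5 was compared with day 1 in limma 3.58.1 (R 4.3.3; lmFit, eBayes, two-sided), adjusted over 23999 probe sets, and the muscles' changes were compared by a contrast in 1 fit of 18 arrays. The procedure was tested on simulated data. The members and lists were chosen with earlier results of these data known. Genes with a call are given with values, others in brief, and up to 4 called genes of each partner list; HSPA6, HSP70.2 and genes that pass only under an alternative were added after their values were seen. The labels tie each masseter number to 1 animal (same-number correlations of deviations -0.03 to 0.12), so the animal block is printed where it changes a call; biceps femoris numbers (-0.21 to 0.11) were not taken as pairs. Alternatives were another normalization, array weights, a trended variance, a filter on dim probe sets, blocks, single arrays left out and 1 probe set per gene. No sequences or coordinates were used.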

Additional observations from a re-analysis of the deposited data

Results flagged for a closer look

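In 3 of 44 groups of arrays examined, over 11 DNAJ genes, 1 array lay far from the others of its group, and chance alone marks about 1 group in 20. All 3 were masseter day 1 array 3. DNAJA1 read 9.31 there and 8.39 to 8.63 in the other 4 arrays, DNAJB1 read 7.25 against 6.72 to 6.86, and DNAJB12 read 8.37 against 8.63 to 8.73.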

How the results depend on the processing

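Among the DNAJ probe sets, the masseter count of 13 became 7 with 1 probe set per gene, since fewer were counted, and ranged from 9 to 15 with 1 array left out. The biceps femoris count of 9 became 4 with the spike-in block, where 1306 of all probe sets passed; that block leaves 1 day 1 array, array 4, to compare with day 5, assumed to vary like the others. It ranged from 6 to 13 with 1 array left out. The difference between muscles had 0 calls in every fit with 1 array left out and 1 with array weights, which call 527 of all probe sets. With the replicate block the counts were 11 in masseter, 7 in biceps femoris (DNAJB12 at an adjusted p of 0.0601 and the second DNAJC3 probe set at 0.0849) and 0 for the difference; in biceps femoris the samples share only a number. None of the named calls reversed its direction. The biceps femoris count, 6 higher and 3 lower in the main fit, changed its balance. It became 6 higher and 7 lower without day 5 array 1, and 3 higher and 4 lower without day 5 array 3. With the spike-in block the uncalled biceps femoris changes of DNAJC14, DNAJC13 and DNAJC12 became -0.05, 0.17 and -0.13. For named members, 157 of the other values kept their side of the threshold and 17 lost it, and with 1 array left out 185 kept it, 40 lost it and 1, DNAJA4 in biceps femoris, gained it. The 157 and 17 include the spike-in block, from which no call is read. Leaving that block aside, DNAJB2 and DNAJB5 passed in all of these fits in both muscles. So did DNAJA1 and DNAJB6 (brighter probe sets) and the dimmer DNAJC14 probe sets called in masseter. In biceps femoris DNAJC1, DNAJC3 (brighter probe set) and DNAJC10 did so as well. Among the partner lists, the HSP70 family count was 2 in masseter with the fit of all 18 arrays and 0 to 2 in biceps femoris, the HSP90 list count was 5 in biceps femoris with the spike-in block, and the exchange factor count in masseter was 1 with a trended variance and 0 with the replicate block. The 6 dimmest member probe sets had means of 3.01 to 4.32 on the log2 scale and gave 0 calls in limma, so little can be read from them.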
